A study of Mus musculus with 42 samples.

Results

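Collagens are the triple-helical proteins that give skin its tensile strength and anchor its cell layers. The 42 collagen genes of this series were taken as all probe sets whose gene symbol reads Col, a number, the letter a and a number, and they are 42 of the 20672 probe sets of the table. No symbol had more than 1 probe set, because the authors had already kept the most variable probe set of each gene. The skin came from wounds of leptin receptor deficient db/db mice, a model of diabetes with slow wound closure, treated on the wound surface with an IL-22-Fc fusion protein, VEGF, PDGF or a control protein. Levels are log2 RMA intensities from Affymetrix arrays, and a difference of 1 is a 2-fold change. Levels of different collagens were not ranked against each other. They were set against 1 common floor, the level of Y chromosome probe sets given below, which takes the floor to be alike between probe sets.

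The 9 groups were untreated skin (5 arrays), 24 h wounds that had received 1 dose (4 arrays with the control agent and 5 each for IL-22-Fc, for VEGF and for PDGF) and day 7 wounds dosed every other day (5 arrays each for the control agent, for IL-22-Fc and for VEGF, and 3 for PDGF). Wounded animals were female db/db mice (BKS.Cg-Dock7m Leprdb/+ +/J, 10 to 12 weeks old by the study's methods), although the strain label reads C57BL/6 throughout, and the genotype and age of the untreated mice were not given in the sources used here. The labels name anti-ragweed antibody as the control agent, where the methods name a control Fc protein. For VEGF the labels give 20 µg, for PDGF 50 µg and for IL-22-Fc 50 µg at 24 h and no dose at day 7, while the study's methods give 50 µg of every agent and the series' design text 20 µg of IL-22-Fc, so that the agents may not have been matched in amount. Every wound group carried the same leptin receptor defect, and wounds of lean mice were not analysed here. A collagen was called higher or lower where limma's adjusted p was under 0.05 over all 20672 probe sets, with no fold threshold. Nothing in the labels says that each array came from a separate mouse, so that the p-values measure the spread between these skin samples.

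Fibrillar collagens (types I, II, III, V, XI, XXIV and XXVII; 11 genes here) assemble into the rope-like fibrils of the dermis, and type III with type I fills healing wounds. Type IV chains (6 genes) form the sheet of the basement membrane under epithelium and around vessels. Transmembrane collagens (XIII, XVII, XXIII and XXV; 4 genes) sit in the plasma membrane with a collagenous outer part, and type XVII holds basal keratinocytes to the basement membrane. The remaining genes were 9 of fibril-associated types, 5 of type VI and its relatives, 3 of network-forming types VIII and X, 2 multiplexins (XV and XVIII), the anchoring fibril chain Col7a1 and Col26a1.

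In female skin, probes of Y chromosome genes show the signal of an absent transcript, and the highest value of the 3 such genes found on any array was 3.78. The group means of 6 collagens, Col24a1, Col25a1, Col20a1, Col22a1, Col6a5 and Col26a1, stayed at or under that level throughout, so that no fold is given for them. Col25a1, a transmembrane chain known from neurons, ranged from 2.37 to 3.58. The other 36 had at least 1 group mean above it. Where every array of a group lay under 3.78, a fold against it is given as a lower bound.

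Untreated replicate 5 stood apart from its group. Its correlation with the other untreated arrays over all probe sets was 0.941 to 0.947, while the other 4 reached 0.993 among themselves, and its mean level of 5 measured hair follicle markers was 12.26 against 3.85 to 3.91 on the other 4. Its 5′ Gapdh signal was 11.14 against 12.50 to 12.92, the lowest of all 42 arrays. Such a signal depends on how far labelling reached towards the transcript start and on the amount of Gapdh transcript, which were not separated. Of 5 adipocyte genes, Lep (7.59 against 11.89 to 12.71) and Cidec (8.94 against 11.27 to 11.78) were low on replicate 5. Fabp4 (5.41 against 7.23 to 8.69) and Adipoq (11.90 against 12.79 to 13.21) were lower too. Retn (10.65) lay within the range of the other arrays (10.05 to 11.02). Col11a1 measured 8.49 on that array and 2.80 to 3.16 on the others. PDGF 24 h replicate 4 also carried hair follicle transcripts, at 9.44 against 3.92 to 4.06 on the other 4 arrays of its group. The PDGF day 7 arrays also had a low 5′ Gapdh signal, at 11.26 to 11.60 against 12.82 to 12.99 in day 7 control wounds. Counts over all 42 collagens against untreated skin, and the changes of collagens named there, are therefore given with and without replicate 5. Counts of families and of gene or marker lists there use all 5 untreated arrays. Collagen counts with PDGF day 7 are given beside a fit holding the 5′ level as a covariate.

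The promoters of 33 of the 42 genes were found in the RefSeq table, in 36 windows of 300 bases around transcript starts. Shown first are the windows of Col4a1 and Col4a2, which lie head to head on opposite strands and were both higher with VEGF at day 7. They overlap by 78 bases (chr8:11312777-11312854). Capitals mark every CCAAT box, GC box and TATA box on either strand. A CCAAT box was CCAAT, or ATTGG when read on the other strand. A GC box was GGGCGG, which reads CCGCCC on the other strand. A TATA box was TATAAA, or on the other strand TTTATA.
Col4a1, chr8:11312777-11313076 (GRCm38.p6, minus strand): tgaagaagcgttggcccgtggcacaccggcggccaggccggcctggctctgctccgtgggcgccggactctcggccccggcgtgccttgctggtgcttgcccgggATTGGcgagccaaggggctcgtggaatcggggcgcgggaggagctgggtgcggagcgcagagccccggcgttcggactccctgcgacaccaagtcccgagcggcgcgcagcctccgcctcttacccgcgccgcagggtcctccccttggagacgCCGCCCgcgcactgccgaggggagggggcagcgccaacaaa
Col4a2, chr8:11312555-11312854 (GRCm38.p6, plus strand): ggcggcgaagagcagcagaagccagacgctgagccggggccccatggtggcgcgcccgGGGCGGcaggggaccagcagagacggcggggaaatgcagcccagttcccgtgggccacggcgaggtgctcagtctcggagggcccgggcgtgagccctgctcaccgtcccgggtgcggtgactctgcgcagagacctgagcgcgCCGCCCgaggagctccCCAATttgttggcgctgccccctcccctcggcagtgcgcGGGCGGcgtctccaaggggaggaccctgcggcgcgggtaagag

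Col4a1 held 1 CCAAT box and 1 GC box and Col4a2 held 1 and 3, with no TATA box in either, and 1 GC box lay in the shared bases. The G and C content was 74.0% and 73.7%. Next are Col13a1, the transmembrane collagen with the largest rise under VEGF, and the fibrillar chains Col1a2 and Col3a1, which were higher in day 7 than in 24 h control wounds and lower with PDGF.
Col13a1, chr10:61979059-61979358 (GRCm38.p6, minus strand): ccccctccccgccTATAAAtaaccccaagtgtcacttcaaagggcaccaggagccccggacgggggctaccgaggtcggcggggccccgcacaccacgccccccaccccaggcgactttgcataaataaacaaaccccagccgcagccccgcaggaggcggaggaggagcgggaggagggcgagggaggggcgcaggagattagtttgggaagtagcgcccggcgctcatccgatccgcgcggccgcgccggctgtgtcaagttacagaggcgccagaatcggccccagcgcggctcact
Col1a2, chr6:4505368-4505667 (GRCm38.p6, plus strand): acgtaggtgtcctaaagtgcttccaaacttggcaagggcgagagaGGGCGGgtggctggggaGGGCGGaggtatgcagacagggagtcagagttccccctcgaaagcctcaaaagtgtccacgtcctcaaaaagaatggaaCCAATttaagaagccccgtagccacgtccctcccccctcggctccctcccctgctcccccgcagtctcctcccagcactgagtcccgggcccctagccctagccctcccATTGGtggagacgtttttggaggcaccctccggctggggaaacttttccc
Col3a1, chr1:45311288-45311587 (GRCm38.p6, plus strand): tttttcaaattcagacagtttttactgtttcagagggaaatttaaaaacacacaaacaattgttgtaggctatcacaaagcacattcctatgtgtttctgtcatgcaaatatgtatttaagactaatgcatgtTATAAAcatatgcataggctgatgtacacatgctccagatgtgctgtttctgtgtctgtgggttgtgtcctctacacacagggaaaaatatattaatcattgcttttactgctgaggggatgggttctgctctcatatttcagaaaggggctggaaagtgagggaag

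Col13a1 and Col3a1 each carried 1 TATA box and neither of the other motifs, and Col1a2 carried 2 CCAAT boxes and 2 GC boxes. Of all 32851 windows in the table, 37.4% held a CCAAT box, 35.7% a GC box and 13.6% a TATA box. Among the 36 collagen windows the shares were 36.1% (13 windows), 61.1% (22) and 13.9% (5). These matches describe the letters of the windows, and binding of any factor was not measured.

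The control wounds, which received no growth factor, give the course against which treatments are read. From 24 h to day 7, all 11 fibrillar genes rose, with a median change of 2.35 on the log2 scale, also with genes under the Y gene level at 24 h set to their bound. Over the 42 collagens, 27 were higher and 4 lower at day 7, that is 64.3% and 9.52%, where 14.1% and 16% of all probe sets were called higher and lower. The median change of the collagens was 0.57, against -0.0045 for all probe sets. The genes called higher include Col24a1 and Col25a1, whose group means lay at or under the Y gene level, and Col24a1 is also among those called higher than in untreated skin below.

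Col1a1, the α1 chain of type I collagen, measured 9.83, 9.10, 10.26 and 9.98 in 24 h control wounds and 13.33, 12.93, 13.41, 13.26 and 13.69 at day 7. Every day 7 array was above every 24 h array, a rise of 3.53 ± 0.32 (SE; 11.6-fold, adjusted p = 6.1e-11). Col1a2, its partner chain, rose by 2.88 ± 0.31, and Col3a1, the single chain of type III collagen, by 2.57 ± 0.24 (5.93-fold). The type V chains that set fibril diameter followed, Col5a1 by 3.51, Col5a2 by 2.35 and Col5a3 by 2.12.

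Col11a1, a minor fibrillar chain best known from cartilage, rose from under the Y gene level to a clear signal. The 24 h control arrays read 2.84, 2.60, 2.70 and 2.68, and the day 7 arrays 7.56, 6.02, 6.98, 7.63 and 7.81. The rise was at least 10.7-fold against the 3.78 floor. Of 4 cartilage markers, none rose over the same interval and 1 (Sox9) fell by 0.61. Which cells gave the Col11a1 signal was not tested.

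The fibril-associated chains Col12a1 and Col14a1, which coat the surface of type I fibrils, rose by 2.80 ± 0.24 and 3.92 ± 0.35. Col14a1 read 6.43, 5.20, 7.13 and 6.62 at 24 h and 10.30, 9.75, 10.42, 10.12 and 10.72 at day 7, so that its groups were far apart. Type VI chains, which form beaded filaments around cells, rose together, Col6a1 by 1.66, Col6a2 by 1.71 and Col6a3 by 1.83. Type VIII chains, found in vessel walls and remodelling matrix, also rose, Col8a1 by 1.89 and Col8a2 by 1.72. Col7a1, which builds the anchoring fibrils under the epidermis, rose by 1.53 ± 0.18.

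Basement membrane chains divided. Col4a1 measured 11.93, 11.75, 11.88 and 12.16 at 24 h and 11.36, 11.51, 11.56, 11.55 and 11.66 at day 7, and fell by 0.40 ± 0.12 (adjusted p = 0.0081). Col4a2 fell by 0.38 and Col4a6 by 0.31, while Col4a3 rose by 0.36, Col4a4 by 0.47 and Col4a5 by 0.63. Among the 6, Col4a5 alone reached a 1.5-fold change, and the calls of Col4a1, Col4a3, Col4a4 and Col4a6 were each lost on leaving out at least 1 array; without control 24 h replicate 4 the adjusted p of Col4a1 was 0.053. Col23a1, a transmembrane chain, was the fourth gene that fell, by 0.57 ± 0.15.

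**Figure D1:**
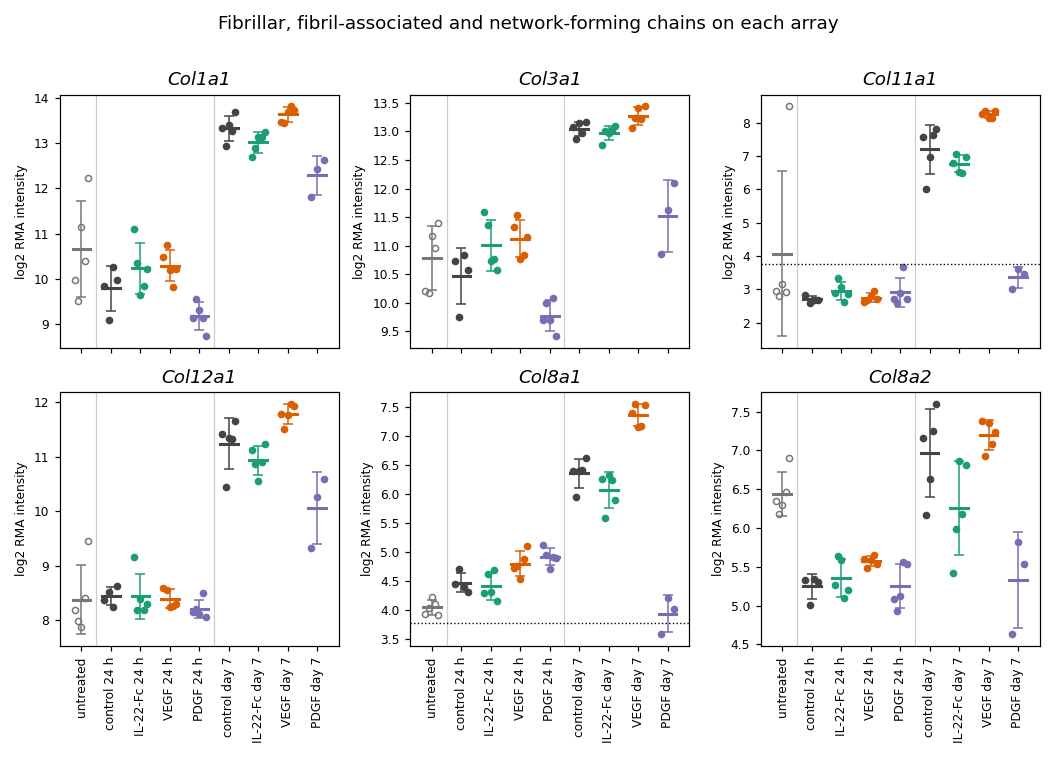
Log2 RMA intensity of Col1a1, Col3a1, Col11a1, Col12a1, Col8a1 and Col8a2 on each array (points) in the 9 groups along the horizontal axis, with group means (lines) and SD (bars). Dotted lines mark the highest Y gene level, 3.78; the day 7 control arrays of Col11a1 lie between 6.02 and 7.81, the PDGF day 7 arrays under the line, and untreated replicate 5 at 8.49.

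Against untreated skin, the day 7 control wound held more fibrillar and less basement membrane collagen transcript. Of the 42 genes 20 were higher and 7 lower, beside 18.2% and 18.6% of all probe sets. With all 5 untreated arrays, 10 of the 11 fibrillar genes were higher (median 1.86), among them Col24a1 at the Y gene level. All 6 type IV genes were lower in the same fit (median -0.58), though Col4a1 lost its call without replicate 5. Without untreated replicate 5 the counts were 25 higher and 6 lower, beside 20.8% and 19.8% of all probe sets.

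Col12a1 rose by 2.86 ± 0.23, from 8.19, 7.99, 7.87, 8.40 and 9.45 in untreated skin to 11.42, 10.44, 11.34, 11.33 and 11.66. Its groups did not overlap, and the rise was 3.13 without replicate 5. Col1a1 rose by 2.66 ± 0.30 and by 3.06 without replicate 5, whose value of 12.24 was the highest of the untreated arrays (9.52 to 11.15 on the others). Col11a1 rose by 3.13 with replicate 5. Without it, every untreated array lay under the Y gene level and the rise was at least 10.7-fold.

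Col4a4, a chain restricted to specialised basement membranes, measured 6.52, 6.29, 6.79, 6.05 and 7.07 in untreated skin and 5.27, 5.11, 5.25, 5.62 and 5.36 in day 7 control wounds. All wound arrays were lower, by 1.22 ± 0.17 (adjusted p = 2e-07), and by 1.09 without replicate 5. Col4a5 and Col4a6, neighbours on the X chromosome that pair in skin basement membranes, were each lower by 0.74 with all arrays and by 0.68 without replicate 5. Col4a1 was lower by 0.34 ± 0.11 and lost its call without replicate 5 (adjusted p = 0.053). Col17a1, the hemidesmosome collagen, read 11.74, 11.59, 11.22, 11.83 and 10.20 in untreated skin and was lower by 0.69 ± 0.18 in day 7 wounds, and by 0.97 ± 0.13 without replicate 5.

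At 24 h, 16 collagens were lower and 4 higher than in untreated skin, where 20.2% and 19.3% of all probe sets were lower and higher. Without replicate 5 they were 14 lower and 4 higher, beside 22.5% and 23.2%. Col14a1 was lower by 2.02 ± 0.35 (untreated 7.90, 7.27, 8.50, 8.16 and 10.00), Col4a4 by 1.69 ± 0.18 and Col4a5 by 1.37 ± 0.16. Without replicate 5 these 3 were lower by 1.61, 1.56 and 1.31. Col1a1 was lower by 0.87 with all arrays and by 0.47 without replicate 5, where it was not called (adjusted p = 0.16), and Col1a2 and Col7a1 lost their calls in the same way. The calls of Col1a1, Col1a2, Col5a2, Col7a1 and Col22a1 also depended on other single arrays.

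The 4 genes higher at 24 h were Col23a1, Col2a1, Col8a1 and Col9a2. Col23a1 measured 6.37, 7.01, 6.34, 6.46 and 6.55 in untreated skin and 7.71, 7.52, 7.42 and 7.32 in 24 h control wounds. Its groups did not overlap, and it rose by 0.95 ± 0.15 (1.93-fold, adjusted p = 3.9e-06), the same without replicate 5. Col2a1, the main cartilage collagen, rose by 0.43, from a mean of 4.30 to 4.72, and Col8a1 by 0.42, from 4.04 to 4.47. Without replicate 5 they rose by 0.54 and 0.39. Col4a1 (0.06, 95% interval -0.18 to 0.30) and Col4a2 (-0.05, -0.28 to 0.17) were not called at 24 h, with or without replicate 5 (0.13 and -0.12 without it).

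Cell type markers moved along this course as well. Fibroblast markers were lower in 5 of 8 and higher in 1 of 8 at 24 h against untreated skin (all 5 untreated arrays). From 24 h to day 7 in control wounds 7 of 8 rose and 1 (Dcn) fell by 0.45. Their mean level was 7.85 to 8.22 on the 24 h arrays and 9.26 to 9.78 on the day 7 arrays. In whole skin, more or fewer cells of a type and more or less RNA per cell cannot be told apart.

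VEGF, a growth factor for blood vessel endothelium, was compared with control wounds at day 7. It raised 10 collagens and lowered 1, where 5.96% of all probe sets were higher and 8.74% lower. The genes that rose were Col13a1, Col4a1, Col4a2, Col18a1, Col11a1, Col15a1, Col8a1, Col14a1, Col6a4 and Col5a2, which are a transmembrane chain, both classical type IV chains, both multiplexins, the fibrillar chains Col11a1 and Col5a2, the fibril-associated chain Col14a1, the network-forming chain Col8a1 and the type VI chain Col6a4. The main dermal chains were not called: Col1a1 changed by 0.31 (95% interval -0.01 to 0.62), Col1a2 by 0.24 (0.05 to 0.43) and Col3a1 by 0.23 (-0.09 to 0.54). Without control day 7 replicate 5, the count of higher genes was 16 with 1 lower. Shares of all probe sets are not given for that fit.

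Col13a1, a membrane-spanning collagen found at cell adhesion sites, showed the largest change of the family. The day 7 control arrays read 5.06, 4.98, 4.91, 4.67 and 4.80 and the VEGF arrays 8.44, 7.85, 7.61, 8.12 and 7.40. No arrays overlapped, and the rise was 3.00 ± 0.14 (8.00-fold, adjusted p = 1.2e-10). At 24 h the control arrays read 5.51, 4.85, 5.29 and 4.80 and the VEGF arrays 6.90, 6.69, 6.46, 6.24 and 6.71, a rise of 1.49 ± 0.16 (2.80-fold, adjusted p = 3.6e-05). It was the 1 collagen called higher with VEGF at 24 h, and none was called lower. Of all probe sets 0.126% and 0.00967% were called higher and lower. By limma, 9 of the 42 collagens had an unadjusted p under 0.05 there, beside 1942 of all 20672 probe sets. Without a call, Col23a1 read 6.98, 6.94, 6.72, 7.20 and 7.09 with VEGF at 24 h. All lay under its 24 h control arrays (7.71, 7.52, 7.42 and 7.32). At 24 h all VEGF arrays lay above all control arrays for Col13a1, and also for Col4a3 and Col8a2, which were not called. The share of all probe sets separated in this way is not given here. The Col13a1 effect at day 7 exceeded that at 24 h by 1.51 ± 0.22 (adjusted p = 1.3e-05).

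Col4a1 and Col4a2, the chains of the most widespread basement membrane network, rose in parallel at day 7. Col4a1 was 13.03, 12.86, 12.81, 12.78 and 12.73 with VEGF, above every array of every other group. Its change against control was 1.31 ± 0.09 (2.49-fold, adjusted p = 4.9e-09). Col4a2 was 11.83, 11.67, 11.58, 11.66 and 11.49 with VEGF and 10.25, 10.47, 10.52, 10.42 and 10.62 in control wounds, a change of 1.19 ± 0.09 (2.28-fold). At 24 h neither was called, with changes of 0.16 (95% interval -0.11 to 0.43) and 0.14 (-0.09 to 0.37), and the day 7 effects were larger by 1.15 and 1.05 (adjusted p = 6e-06 and 4.9e-06). The other type IV chains, Col4a3, Col4a4, Col4a5 and Col4a6, were not called against control.

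The multiplexins Col18a1, whose released end is the angiogenesis inhibitor endostatin, and Col15a1, its relative at the outer side of vascular basement membranes, rose by 1.05 ± 0.09 and 1.00 ± 0.12. Col18a1 measured 10.30, 10.11, 10.10, 10.29 and 9.91 with VEGF and 8.88, 9.11, 9.15, 9.08 and 9.25 in control wounds. Col15a1 measured 9.60, 9.49, 9.45, 9.36 and 9.08 with VEGF and 8.04, 8.33, 8.48, 8.35 and 8.76 in control wounds. In both genes every VEGF array was above every control array. Each effect was larger at day 7 than at 24 h, by 1.01 and 0.80 (adjusted p = 1.3e-06 and 0.021).

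Col8a1 rose by 1.00 ± 0.15, from 6.39, 5.95, 6.40, 6.41 and 6.62 to 7.39, 7.55, 7.15, 7.16 and 7.54. Col11a1 rose by 1.05 ± 0.24 with VEGF arrays of 8.27, 8.36, 8.15, 8.14 and 8.34, and Col14a1 by 0.85 ± 0.20. The calls of the last 2 were lost when all 42 arrays shared 1 estimate of spread. Col5a2 changed by 0.37 ± 0.12 and lost its call without any of 7 arrays, so that it rests on few arrays.

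Col17a1 alone was lower with VEGF. The arrays read 9.82, 10.03, 9.42, 9.70 and 9.47, against 10.87, 10.79, 10.60, 10.66 and 10.21 in control wounds. All VEGF arrays were lower, by 0.94 ± 0.12 (0.521 of control, adjusted p = 1.2e-05), and the effect differed from that at 24 h by -1.04 ± 0.17. Of 7 hemidesmosome partners measured, Itgb4 was lower by 0.95 and Dst by 0.79, and 5 were not called. The other transmembrane chain with a clear signal, Col23a1, was not called (-0.27, 95% interval -0.56 to 0.01).

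Markers of other cells moved with these genes. Endothelial markers were higher in 9 of 10 and lower in 1 (Vwf), and their mean level was 7.71 to 8.11 with VEGF and 6.64 to 6.83 in control wounds. Pericyte and smooth muscle markers were higher in 8 of 8, at 9.03 to 9.32 and 8.12 to 8.36. Basal keratinocyte markers were lower in 4 of 4, at 8.46 to 8.69 and 9.16 to 9.46, and fibroblast markers in 0 of 8. Suprabasal keratinocyte markers were lower in 6 of 6, at 11.11 to 11.58 and 11.88 to 12.17, among them Ivl by 0.96 and Dsg1a by 0.84. Adipocyte markers were lower in 4 of 5, at 8.04 to 8.55 and 8.76 to 9.28. At 24 h, when Col13a1 was already higher, 1 of 10 endothelial and 1 of 8 pericyte markers were higher. The part of cell numbers in the collagen changes was not tested.

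**Figure D2:**
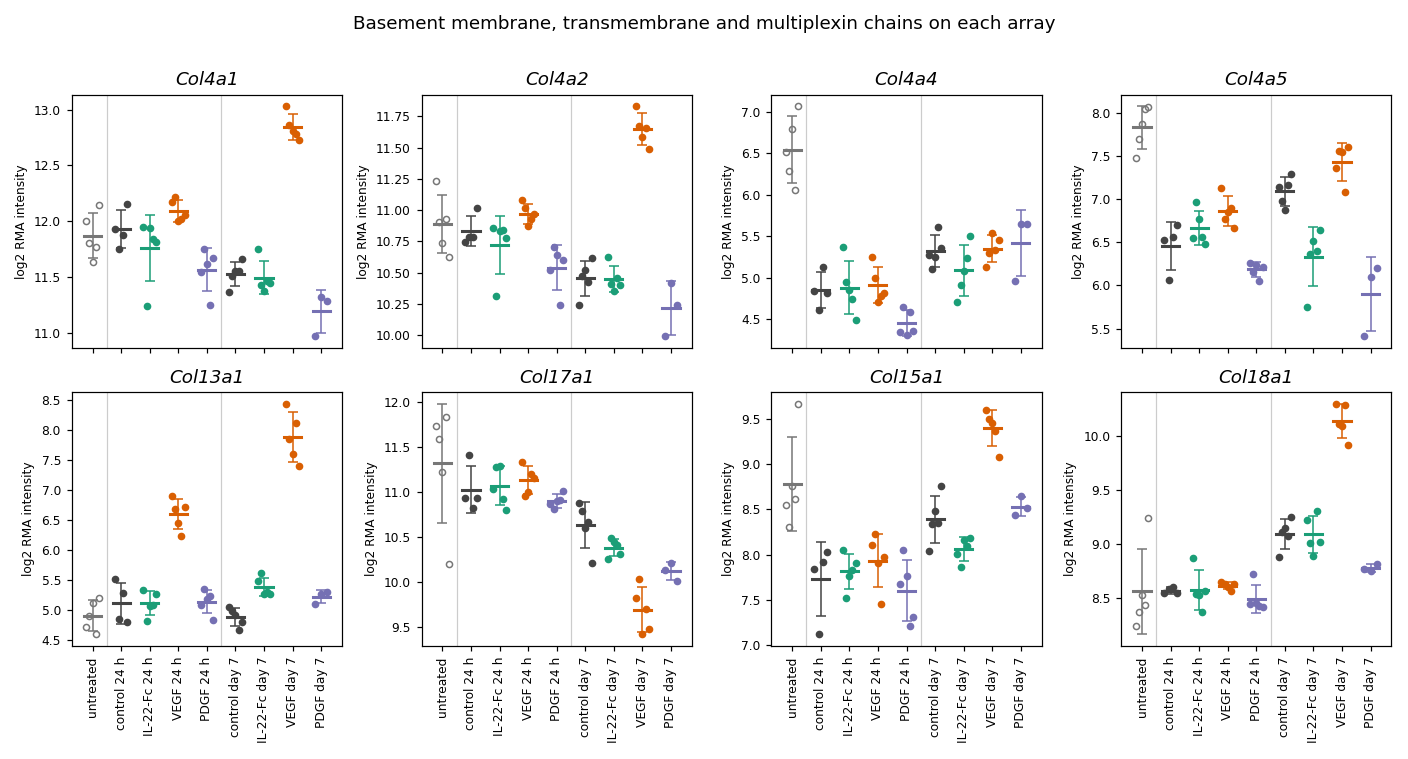
Log2 RMA intensity of Col4a1, Col4a2, Col4a4, Col4a5, Col13a1, Col17a1, Col15a1 and Col18a1 on each array (points), with group means (lines) and SD (bars); the vertical axes differ between genes and do not start at 0. VEGF day 7 arrays are the highest for Col4a1 (12.73 to 13.03) and Col13a1 (7.40 to 8.44) and lie under all day 7 control arrays for Col17a1 (9.42 to 10.03).

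PDGF, a growth factor for fibroblasts and pericytes, was compared with the same day 7 control wounds on 3 arrays. It lowered 15 collagens and raised 4, where 16% of all probe sets were lower and 18.9% higher. Lower genes included the fibrillar chains Col11a1, Col3a1, Col1a1, Col5a2 and Col1a2 and both type VIII chains. Without PDGF day 7 replicate 1 the counts were 11 lower and 1 higher. For all probe sets the shares in that fit are not given here.

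With the 5′ level of the arrays as a covariate, 2 collagens were called, both lower: Col11a1 (adjusted p = 0.046) and Col4a3 (adjusted p = 0.037). Every PDGF array of both genes lay under the Y gene level, so that no size is given from that fit. Over all probe sets 0.252% were then higher and 0.634% lower, and the median SE rose from 0.119 to 0.361, because the 5′ Gapdh level of the PDGF arrays does not overlap that of the control arrays. In that fit Col4a1 and Col18a1 changed sign without a call (0.25 and 0.30, adjusted p = 0.75 and 0.69). The 5′ level and PDGF treatment cannot be told apart at day 7, and this holds for every comparison with the PDGF day 7 wounds below.

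Col11a1 measured 3.00, 3.62 and 3.47 with PDGF, all under the Y gene level, where control wounds measured 6.02 to 7.81. It was at least 10.7-fold lower (adjusted p = 1.2e-09). Col8a1 measured 3.59, 4.21 and 4.02 and was lower by 2.42 ± 0.17 (0.187 of control). Col8a2 measured 4.63, 5.82 and 5.54 against 7.16, 6.17, 6.63, 7.26 and 7.60 and was lower by 1.63 ± 0.32. For all 3 genes no PDGF array overlapped the control arrays.

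Col3a1 read 10.85, 11.62 and 12.10 with PDGF and 13.07, 12.87, 13.14, 12.97 and 13.16 in control wounds. It was lower by 1.52 ± 0.18 (0.349 of control, adjusted p = 8.6e-07). Col1a1 read 11.81, 12.42 and 12.62 and was lower by 1.04 ± 0.17, and Col1a2 read 12.91, 13.28 and 13.44 against 13.79, 13.54, 13.73, 13.68 and 13.91, lower by 0.52 ± 0.11. In each of these chains PDGF replicate 1 was the lowest array and all 3 lay below every control array. Their levels remained above those of 24 h control wounds on every array.

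The type VI chains parted. Col6a2 was higher by 0.44 ± 0.16 (11.92, 11.99 and 12.04, against 11.39, 11.13, 11.63, 11.53 and 12.04), and Col6a3 was lower by 0.43 ± 0.14 (12.34, 12.66 and 12.89, against 13.05, 12.69, 13.18, 12.96 and 13.41). The groups overlapped in both genes, and each call was lost on leaving out at least 1 array. Col5a3, the chain of type V found in few tissues, was higher by 0.58 ± 0.21 (11.09, 10.98 and 11.56, against 10.25, 10.45, 11.00, 10.50 and 10.96), and Col6a4 by 0.41 ± 0.14. The calls of Col5a3 and Col6a4 were each lost without any of 5 single arrays, and the fourth gene called higher, Col6a5, was at the Y gene level.

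Of the basement membrane chains, Col4a5 was lower by 1.19 ± 0.19 (5.41, 6.10 and 6.20, against 7.15, 6.98, 6.87, 7.16 and 7.30) and Col4a1 by 0.34 ± 0.11 (10.97, 11.32 and 11.29). Col4a1 lost its call without PDGF replicate 1, and Col4a2 was not called (-0.24, 95% interval -0.46 to -0.02). Col17a1 was lower by 0.51 ± 0.14, at 10.13, 10.21 and 10.01. Col13a1 was not called (0.34, 95% interval -0.01 to 0.69).

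Among marker lists, 4 of 5 macrophage markers were higher with PDGF (mean level 11.33 on the lowest and on the highest array, against 10.44 to 10.71), 3 of 8 fibroblast markers were lower and 2 higher, and 4 of 8 pericyte and smooth muscle markers were lower and 1 higher. Of 10 endothelial markers 4 were higher and 1 was lower. Suprabasal keratinocyte markers were lower in 3 of 6 (Dsg1a by 1.58, Ivl by 1.39 and Krt10 by 0.59) and at 11.27 to 11.64, against 11.88 to 12.17. Basal keratinocyte markers were higher in 2 of 4 and lower in 1, and adipocyte markers were lower in 5 of 5. In these lists the widest differences were in the pericyte gene Rgs5 (-2.38) and in Lum (-2.17), which encodes a collagen-binding proteoglycan. Their part in the collagen changes was not tested.

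At 24 h 1 collagen, Col6a3, was called higher with PDGF and none was called lower. Of all probe sets 0.489% were higher and 1.4% lower. By limma, 15 of the 42 collagens had an unadjusted p under 0.05 there, beside 3239 of all 20672 probe sets. Col6a3 read 11.60, 11.87, 11.75, 11.85 and 11.45, against 11.19, 11.13, 11.32 and 11.29, a change of 0.47 ± 0.12 with an adjusted p of 0.050. Leaving out any of 7 arrays ended that call. Without control 24 h replicate 2, 2 collagens were higher and 7 lower, and the shares of all probe sets there are not given. The day 7 effect of PDGF differed from the 24 h effect in 10 collagens, 8 of them more negative at day 7 and 2 more positive, where 14.3% and 18.1% of all probe sets differed in those directions. With the 5′ level as a covariate fewer collagens were called, as counted in the section on processing. In that fit 0.314% of all probe sets were more negative and 0.372% more positive. Without the covariate the differences were -2.86 for Col8a1, -1.64 for Col8a2, -0.90 for Col6a3 and 1.00 for Col5a3. Col11a1 was called too, but its arrays lay under the Y gene level in PDGF wounds at both times and in 24 h control wounds, so that the size of its difference was not measured.

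IL-22-Fc joins the cytokine IL-22, which signals to epithelial cells such as keratinocytes, to an antibody Fc part. At day 7 it raised 2 collagens and lowered 2, where 2.81% of all probe sets were higher and 2.64% lower. Col4a5 was lower by 0.76 ± 0.16 (5.75, 6.36, 6.52, 6.40 and 6.64, against 6.87 to 7.30 in control wounds; adjusted p = 0.0065). Col16a1, a fibril-associated chain made by keratinocytes and fibroblasts, was lower by 0.48 ± 0.12 (8.63, 8.67, 8.80, 8.71 and 8.89, against 9.08, 8.96, 9.24, 9.19 and 9.62). In both genes every treated array was below every control array.

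Col19a1 read 5.36, 4.13, 4.51, 3.84 and 4.04 with IL-22-Fc and 3.24, 3.30, 3.44, 3.81 and 3.66 in control wounds, close to the Y gene level, and was higher by 0.89 ± 0.21. Col13a1 was higher by 0.50 ± 0.14 (5.49, 5.61, 5.26, 5.31 and 5.26), with an adjusted p of 0.046 that passed 0.05 on leaving out any of 9 arrays. The count of 4 called collagens became 10 (1 higher and 9 lower) without control day 7 replicate 2 and 2 without control day 7 replicate 5. Shares of all probe sets in those fits are not given. Col1a1, Col3a1, Col4a1 and Col4a2 were not called, and for Col4a1 the interval of the change was -0.23 to 0.15.

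Keratinocyte markers moved in the same IL-22-Fc wounds. Of 6 suprabasal markers 3 were lower and 1 higher, with the cornified envelope genes Lor and Ivl lower by 2.44 and 2.24, Krt10 lower by 0.35 and Klk7 higher by 0.56. Their mean level was 11.25 to 11.40, against 11.88 to 12.17 in control wounds. Of 4 basal markers, Krt14 was higher by 0.46 and Krt15 lower by 1.72. Fibroblast markers were lower in 1 of 8, adipocyte markers in 2 of 5, neutrophil markers were higher in 2 of 3, and none of the 10 endothelial, 8 pericyte and 5 macrophage markers was called. Their part in the collagen changes was not tested.

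At 24 h IL-22-Fc changed no collagen by limma at an adjusted p under 0.05, where 0.0726% of all probe sets were higher and 0.0387% lower. By limma, 3 of the 42 collagens had an unadjusted p under 0.05, beside 1449 of all 20672 probe sets, a like share. The IL-22-Fc effect at day 7 differed from that at 24 h in 1 collagen, Col4a5 (-0.96 ± 0.21, adjusted p = 0.014), and in none in the other direction, beside 0.934% and 0.759% of all probe sets. That count ranged from 0, without control 24 h replicate 2, to 4, without control day 7 replicate 2, and was 2 without IL-22-Fc 24 h replicate 4, control 24 h replicate 3 or control 24 h replicate 4. For VEGF the corresponding difference was called in 8 collagens more positive at day 7 and 2 more negative, beside 2.57% and 6.28% of all probe sets.

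**Figure D3:**
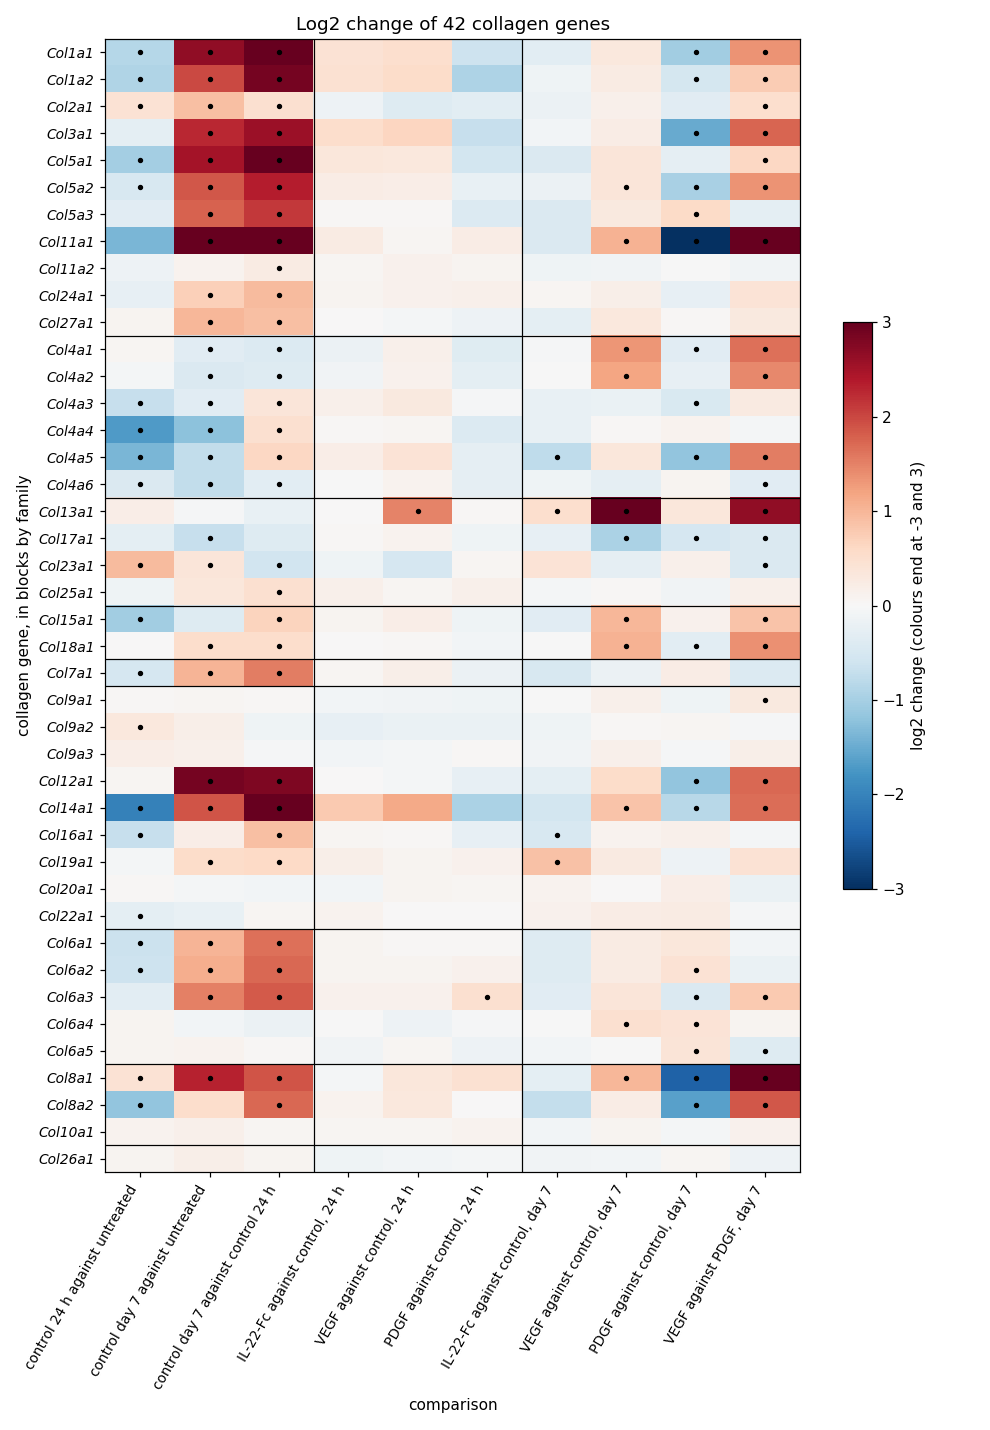
Colour gives the log2 change of each of 42 collagen genes (rows, in blocks by family) in 10 comparisons (columns), red for higher and blue for lower, and a black dot marks a limma adjusted p under 0.05. Fibrillar rows are red in the day 7 control columns, Col4a1, Col4a2 and Col13a1 stand out in the VEGF day 7 column, and Col11a1, Col8a1 and Col8a2 in the PDGF day 7 column.

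The agents were also set directly against each other at day 7, although their doses differed or were unclear in the labels. With VEGF, 19 collagens were higher and 4 lower than with PDGF, where 17% and 22.7% of all probe sets were higher and lower. Of the 11 fibrillar genes 7 were higher and none lower. The widest differences were Col11a1 (at least 22.2-fold), Col8a1 (3.42 ± 0.17), Col13a1 (2.66 ± 0.17), Col8a2 (1.86 ± 0.32) and Col3a1 (1.75 ± 0.18). Col23a1, Col17a1 and Col4a6 were lower, by 0.34 to 0.43, as was Col6a5, which was at the Y gene level. With the 5′ covariate only Col11a1 was still called.

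Between IL-22-Fc and VEGF wounds, whose 5′ Gapdh ranges were 12.96 to 13.26 and 12.65 to 13.09, 22 collagens were lower and 3 higher for IL-22-Fc, where 10.8% and 12.1% of all probe sets were. Among the 22, Col13a1 was lower by 2.50 ± 0.14, Col4a1 by 1.35 ± 0.09, Col15a1 by 1.33 ± 0.12 and Col4a5 by 1.10 ± 0.16. The lower genes also held 4 of the 5 type VI genes and 7 of the 11 fibrillar genes, among them Col1a1 by 0.61 and Col5a1 by 0.80. Higher were Col17a1 (0.69 ± 0.12), Col23a1 (0.67 ± 0.14) and Col19a1 (0.63 ± 0.21). The VEGF mean of Col19a1, 3.75, lay under the Y gene level, so that the size of its difference is uncertain. For Col17a1 the IL-22-Fc arrays read 10.26, 10.49, 10.44, 10.41 and 10.31, all above the VEGF arrays.

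Between IL-22-Fc and PDGF wounds, 11 collagens were higher and 8 lower for IL-22-Fc, where 17% and 21.1% of all probe sets were. The 8 lower genes were a share near that of all probe sets, and Col6a5 among them was at the Y gene level. They were led by Col5a3 (-1.02 ± 0.21), Col6a2 (-0.83 ± 0.16), Col7a1 (-0.72 ± 0.21) and Col6a1 (-0.71 ± 0.15). The higher genes were led by Col11a1 (at least 7.94-fold), Col8a1 (2.12 ± 0.17) and Col3a1 (1.45 ± 0.18). With the 5′ covariate none was called.

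Collagen chains need a large set of enzymes to fold, and the list of folding and modifying enzymes was read beside them. The counts of this list and of those that follow stand against the same shares of all probe sets as above, higher and lower: 14.1% and 16% from 24 h to day 7, 5.96% and 8.74% with VEGF, 18.9% and 16% with PDGF, and 2.81% and 2.64% with IL-22-Fc. From 24 h to day 7 in control wounds, 11 of 17 measured rose and 2 fell, led by P4ha3 (2.73), a prolyl hydroxylase subunit, Plod2 (2.63), a lysyl hydroxylase, and P3h3 (1.79), a relative of the prolyl 3-hydroxylases; Colgalt1, a collagen galactosyltransferase, was not called (0.20). VEGF raised 8 of 17 and lowered 1 at day 7, among them P4ha1 (0.61) and the collagen chaperone Serpinh1 (0.53), while P4ha2 was not called (0.53). With PDGF 4 were higher and 2 lower, 23.5% and 11.8% of the list, shares near those of all probe sets. The lower genes were P4ha3 (by 1.88) and P4ha1 (by 0.78), and Plod1 (0.74) was among the higher. IL-22-Fc called none of 17.

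Procollagen processing and cross-linking enzymes rose in 8 of 10 from 24 h to day 7, led by the procollagen C-proteinase Bmp1 (2.33) and by Pxdn (1.76), the peroxidase that cross-links type IV collagen, while the lysyl oxidase Lox was not called (0.85). VEGF raised 4 of 10 and lowered 1, and Lox rose by 0.63. PDGF lowered 5 of 10 and raised none, Lox by 1.74 and Bmp1 by 1.11. IL-22-Fc lowered 1, Pcolce2 by 0.55.

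Of 9 other basement membrane proteins, VEGF raised 6 and lowered none, led by the nidogens that bridge type IV collagen and laminin, Nid2 (1.60) and Nid1 (0.98), and by the laminin chain Lamb1 (0.90), while Lamb2 was not called (0.06). PDGF lowered 4 and raised 1, Nid2 by 1.78 and Nid1 by 0.69 against Hspg2, the proteoglycan perlecan, at 0.94 higher. IL-22-Fc called none of 9. From 24 h to day 7 in control wounds 6 of 9 rose and 1 fell, with Nid1 at 1.26.

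Collagen receptors were mostly not called under treatment. With VEGF at day 7, Itga1, the type IV collagen-binding integrin chain of vessels, rose by 1.49, Ddr1, an epithelial collagen receptor kinase, fell by 0.55, and 8 of 10 were not called, among them Ddr2 (-0.21). With PDGF, Itgb1 and Ddr1 fell by 0.53 and 0.50 and Adgrg1 rose by 0.50. Genes of collagen breakdown rose in 5 of 11 and fell in 3 at 24 h against untreated skin (all 5 untreated arrays; 19.3% and 20.2% of all probe sets), led by the collagenase Mmp13 (5.13), the neutrophil collagenase Mmp8 (4.49) and Mmp9 (3.36), while Mmp14 was not called (0.35). VEGF raised 1 of these 11 at day 7, Fap (0.61), PDGF lowered Mmp14 by 0.95 and Fap by 0.42 and raised Mmp9 by 0.79, and IL-22-Fc lowered 1, Pepd (-0.34).

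Neighbouring collagen genes were compared over the 42 arrays, as a description, since arrays of a group share treatment and time. Among 630 pairs of the 36 genes above the Y gene level, the median Pearson r was 0.30, and 0.18 after group means were removed. Col6a1 and Col6a2, neighbours on chromosome 10, had the highest r, 0.997, and 0.976 within groups, and Col1a1 and Col1a2, which lie on different chromosomes, had 0.989 and 0.962. Col4a1 and Col4a2, with the shared promoter region printed above, had 0.968 and 0.765. Col3a1 and Col5a2, neighbours on chromosome 1, had 0.965 and 0.881.

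The other neighbouring type IV pairs were less alike. Col4a3 and Col4a4, also head to head, had an r of 0.62 and 0.13 within groups, and Col4a5 and Col4a6 had 0.32 and 0.23. With VEGF at day 7 the Col4a5 arrays read 7.37, 7.57, 7.55, 7.08 and 7.61 and the Col4a6 arrays 4.60, 4.12, 4.26, 4.24 and 4.40, which were the highest day 7 group mean of the first gene and the lowest of the second. Col9a1 and Col19a1, neighbours on chromosome 1, had 0.23 and -0.24.

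**Figure D4:**
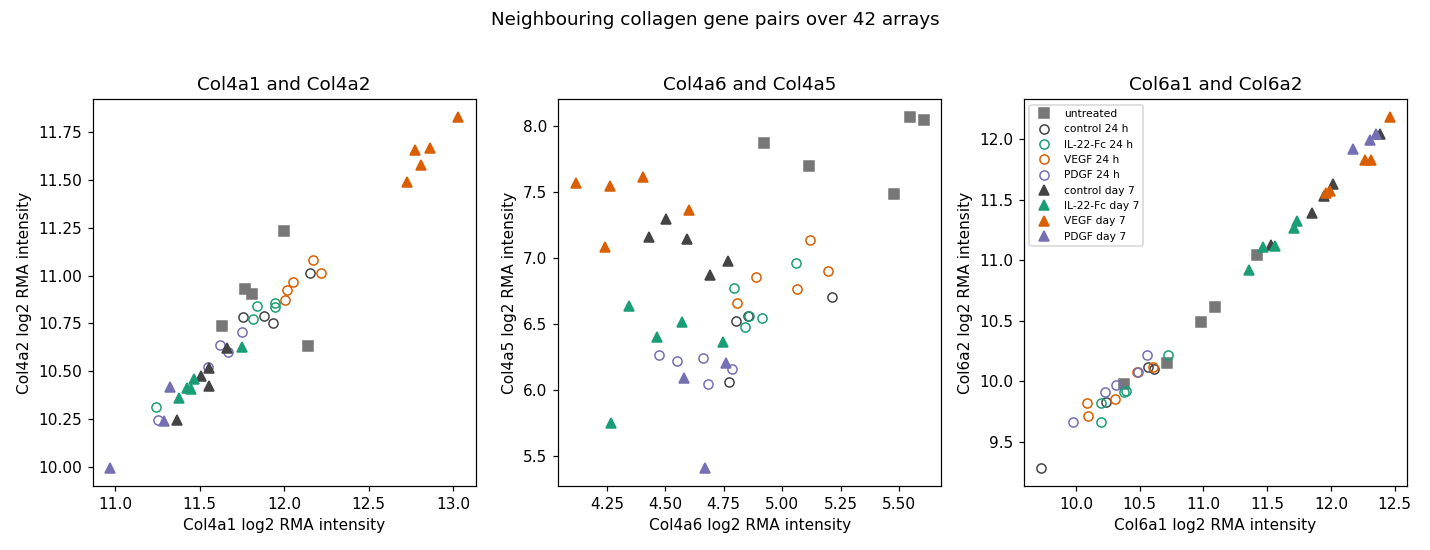
Each point is 1 of 42 arrays, with the log2 RMA intensity of 1 gene on each axis, squares for untreated skin, open circles for 24 h and triangles for day 7, coloured by treatment. Col4a1 and Col4a2 (r = 0.968) and Col6a1 and Col6a2 (r = 0.997) lie along lines, with VEGF day 7 apart at the top of the first, and Col4a6 and Col4a5 (r = 0.319) do not.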

How the data were processed

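RNA of wound-edge skin was hybridised by the authors to Affymetrix Mouse430V2 arrays. The deposited values are RMA intensities on a linear scale, with 1 probe set per Entrez gene chosen by the authors for its variance; the genome build was not given in the sources used here, and the submitters' processing notes name RMA and limma without versions. Here log2 of each intensity was taken, with no further normalization or filter. limma 3.58.1 (R 4.3.3; lmFit and eBayes) was fitted with 1 mean per group, for day 7 (18 arrays), for 24 h (19), for all 42 arrays where control wounds or untreated skin were compared, and for the 37 wound arrays where effects at both times were subtracted. p-values were adjusted by Benjamini-Hochberg over all 20672 probe sets. Gene names came from the platform annotation (17928 probe sets with 1 symbol, 79 with several, 2665 without). The number of arrays limits the precision. The fit was tested on simulated data.

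Members were all collagens. Values on each array are given for 9 fixed genes and for up to 3 called genes with the largest change each way in each comparison with control wounds or untreated skin; Col15a1 and Col18a1 were added after their values were seen. From each pathway list up to 3 called genes and 1 not called are named. The members, gene lists and marker lists were chosen with earlier results of these data known. Alternatives were a 1.5-fold threshold, a filter that kept probe sets with log2 of 6 or more on at least 3 arrays of the fit, array medians, further quantile normalization, an offset of 16, a trended robust prior, array weights, the mean level of the 5′ Gapdh and Actb probe sets as a covariate, other sets of arrays, and each array left out.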

Additional observations from a re-analysis of the deposited data

Results flagged for a closer look

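A single array stood away from the rest of its group in 15 of the 192 group and gene pairs examined, over 24 collagens, where chance gives about 1 in 20. Untreated replicate 5 was such an array for Col11a1 (8.49), Col2a1 (4.75) and Col25a1 (3.53, under the Y gene level). IL-22-Fc 24 h replicate 2 was low for both head-to-head type IV chains, Col4a1 (11.24) and Col4a2 (10.31), and was apart for Col23a1 (6.87). IL-22-Fc 24 h replicate 4 was apart for Col16a1 (8.16) and Col2a1 (4.36), and replicate 1 of that group for Col12a1 (9.16). IL-22-Fc day 7 replicate 1 was apart for Col4a1 (11.75) and Col23a1 (7.78). The others were control 24 h replicate 4 for Col4a2 (11.02), control 24 h replicate 2 for Col8a2 (5.01), control day 7 replicate 2 for Col12a1 (10.44) and PDGF 24 h replicate 4 for Col11a1 (3.68, under the Y gene level). All are log2 levels.

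The effect of an agent at day 7 differed from its effect at 24 h in a limma fit over the 37 wound arrays, and the differences are given as log2 changes at day 7 minus those at 24 h. For VEGF the positive differences were those of Col13a1 (1.51), Col4a1 (1.15), Col4a2 (1.05), Col18a1 (1.01), Col11a1 (1.00), Col15a1 (0.80), Col8a1 (0.67) and Col6a4 (0.63), and the negative ones those of Col17a1 (-1.04) and Col4a3 (-0.49). For PDGF the negative differences were those of Col11a1 (-4.05), Col8a1 (-2.86), Col8a2 (-1.64), Col12a1 (-0.94), Col4a5 (-0.91), Col6a3 (-0.90), Col3a1 (-0.82) and Col5a2 (-0.76), and the positive ones those of Col5a3 (1.00) and of Col6a5 (0.53), which lay at the Y gene level. The Col11a1 values are fitted ones and no measured sizes, since its arrays lay under the Y gene level in PDGF wounds at both times and in VEGF and control wounds at 24 h. The PDGF differences cannot be told apart from the lower 5′ level of the PDGF day 7 arrays, and fewer were called with that level as a covariate. For IL-22-Fc, Col4a5 alone differed (-0.96).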

How the results depend on the processing

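No paired analysis was possible because the replicate numbers are in accession order and tie no arrays together. Counts of called collagens that moved by more than 1.5 times are given here. At a change of at least 1.5-fold, 2 were called for IL-22-Fc against control at day 7, 9 for PDGF against control at day 7, 0 for PDGF at 24 h and 13 for control 24 h against untreated skin. PDGF at 24 h also had 0 after further quantile normalization, with the offset, with the 5′ covariate and with all 42 arrays, and 8 with array weights. With the 5′ covariate 2 collagens were called for PDGF against control, 1 for VEGF against PDGF and 0 for IL-22-Fc against PDGF at day 7, and 3 for the PDGF effect at day 7 minus 24 h. Control 24 h against untreated gave 13 with the arrays of these 2 groups alone, and the IL-22-Fc effect difference gave 3 with dim probe sets left out.

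Leaving out each array in turn gave 2 to 10 for IL-22-Fc, 10 to 17 for VEGF and 12 to 18 for PDGF against control at day 7. All ranges of this paragraph count collagens alone, without shares of all probe sets in the same fits. The range was 17 to 24 for VEGF against PDGF, 23 to 25 for IL-22-Fc against VEGF and 14 to 19 for IL-22-Fc against PDGF. At 24 h it was 0 to 0, 1 to 1 and 0 to 9 for IL-22-Fc, VEGF and PDGF. It was 14 to 22, 25 to 31 and 27 to 31 for control 24 h and control day 7 against untreated and day 7 against 24 h, and 0 to 4, 7 to 11 and 9 to 12 for the effect differences of IL-22-Fc, VEGF and PDGF.

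Among 202 called changes of single genes, 6 reversed, all with the 5′ covariate and none called there: Col4a1 (0.25) and Col18a1 (0.30) for PDGF against control, Col2a1 for VEGF against PDGF (-0.41), and Col4a1 (-0.32), Col18a1 (-0.35) and Col19a1 (-0.21) for IL-22-Fc against PDGF. That covariate ended 68 further calls, and 52 of the 202 were lost on leaving out at least 1 array. The cause was not tested. The 2 scalings shifted the median of all probe sets by under 0.05 in each comparison and reversed none of the 202. Nothing below the Y gene level can be ordered on these arrays.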
